A study of Mus musculus with 12 samples.

Results

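The antioxidant and redox defence genes are a list of 45 genes that cover peroxiredoxins, the thioredoxin and glutathione systems, superoxide and peroxide removal, glutaredoxins, haem oxygenases, ferritin, NADPH supply and the Nrf2 sensor pair. A gene was taken as measured when the array platform gave its symbol, old or current, to a probe. Of the 45 genes, 39 had such a probe, with 71 probes in all, and all 39 had a probe above the background filter. They stand among 12061 genes kept on these arrays. Prdx5, Prdx6, Gsr, G6pdx, Pgd and Ucp2 had no annotated probe and are not analysed here. No gene of the group, and none of the 12061, passed an adjusted test of Terc-/- against WT cells. Gclm had the largest difference of the 39, 0.68 log2 higher in Terc-/- than in WT cells, and Glrx2 was the one gene whose Terc-/- samples all lay below all WT samples. This held on the brightest of the 3 Glrx2 probes and not on the others.

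The cells were leukaemia stem cells of MLL-AF9 acute myeloid leukaemia, a disease driven by a human fusion oncogene, measured on 12 Illumina bead arrays. The Terc-/- cells came from G3 Terc-/- mice, third-generation animals without Terc, the RNA template of telomerase. Their controls came from WT mice. In both groups 10000 lineage-negative, Kit-positive, Sca1-positive marrow cells that expressed MLLAF9gfp were given to C57BL/6J recipients, which were 6 to 8 weeks old and had received 5.5 Gy of radiation. Cells positive for the MLLAF9gfp marker, Kit and Fcgr and negative for lineage markers were sorted from recipient marrow when each leukaemia appeared, so every sample carries the fusion and grew in a host with a partly ablated marrow. Terc-/- samples are further labelled by phosphorylated protein. Replicates 2, 3 and 6 are p-p53 (phosphorylated at Ser15), replicates 1 and 4 are p-Foxo3a (at Ser253), and replicate 5 has no status. Since the labels name no separate animals, a p-value here covers only the spread among these samples, which may be technical.

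WT replicates 5 and 6, and Terc-/- replicates 2 and 6, were nearly identical arrays and were averaged. This left 5 Terc-/- samples (2 p-p53, 2 p-Foxo3a and 1 without status) and 5 WT samples. Each array had 19515 to 19717 probes above the background limit of 6.56 log2. No annotated probe carries the symbol Terc, so the knockout could not be checked. Of the markers of the sorted population, 10 of 11 had a probe and all 10 were above the filter. Their summed signal was 149439 to 239978 linear units in Terc-/- samples and 195601 to 245447 in WT samples. Erythroid markers summed to 775 to 1283 in Terc-/- and 763 to 1436 in WT samples, where background alone gives 650. Mature neutrophil markers were lower in Terc-/- for 10 of 10 genes (median -0.71 log2), with sums of 40849 to 217191 in Terc-/- and 100876 to 202271 in WT samples. Eosinophil, basophil and mast cell markers reached 18764 in Terc-/- replicate 4 and 703 in Terc-/- replicate 1, and 49840 in WT replicate 1. Monocyte and macrophage markers summed to 4471 to 12976 in Terc-/- and 6787 to 21893 in WT samples. B and T cell markers summed to 1904 to 2899 in Terc-/- and 1406 to 2744 in WT samples, and megakaryocyte markers to 407 to 1776 in Terc-/- and 400 to 773 in WT samples. The part of these markers in the results was not tested. In sorted cells measured in bulk, fewer cells of a type and less RNA per cell cannot be told apart.

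Reactive oxygen species are by-products of respiration and of oxidases. Superoxide dismutases turn superoxide into hydrogen peroxide, which catalase, the peroxiredoxins and the glutathione peroxidases remove. Thioredoxin and glutathione supply the electrons, and NADPH recharges both. The transcription factor Nrf2, encoded by Nfe2l2, is held by Keap1 and degraded. Under oxidative or electrophilic stress it escapes and binds antioxidant response elements in the promoters of many of these genes. FoxO factors, which Akt phosphorylation keeps out of the nucleus, and p53 are also known regulators of antioxidant genes in blood stem cells.

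Promoter sequences of RefSeq (GRCm38.p6), from 250 bases before to 50 bases after the start of transcription, were found for 39 of the 45 listed genes and for 35 of the 39 measured ones. They were searched on both strands for 3 motifs. The antioxidant response element, as TGACNNNGC, was in a window of 11 of the 39 genes (28.2%), against 14.0% of all 27025 genes with a window. The AP-1 element TGANTCA, which can overlap it, was in 5 of 39 genes (12.8%), against 8.97% of all genes. The forkhead element GTAAACA, a core that FoxO factors bind, was in 3 of 39 genes (7.69%), against 4.05% of all genes. A match describes the letters of the window and is not evidence of binding. Below are the matches upstream of the start site in Gclm, Nfe2l2 and Prdx1 for the antioxidant response element, and in Glrx2 and Txnip for the forkhead element. Gclm, Glrx2 and Nfe2l2 are shown because they stood at unadjusted p under 0.05 in at least 1 comparison, and Prdx1 and Txnip as described members of their families. Capitals mark the motif, which in Gclm and Prdx1 stands as its reverse complement. Sequences run 5′ to 3′ on the strand of the gene.
Gclm: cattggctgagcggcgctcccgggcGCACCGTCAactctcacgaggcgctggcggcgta
Nfe2l2: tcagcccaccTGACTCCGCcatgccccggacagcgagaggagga
Prdx1: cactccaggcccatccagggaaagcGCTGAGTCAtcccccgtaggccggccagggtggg
Glrx2: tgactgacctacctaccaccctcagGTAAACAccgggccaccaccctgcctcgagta
Txnip: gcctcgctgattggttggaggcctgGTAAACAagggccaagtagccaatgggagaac
The Gclm stretch is chr3:122245398-122245456, plus strand, and its motif starts 134 bases before the start site. The Nfe2l2 stretch is chr2:75704870-75704913, minus strand, with the motif 240 bases before the start. The Prdx1 stretch is chr4:116685441-116685499, plus strand, with the motif 133 bases before the start, and there the motif overlaps an AP-1 element. The Glrx2 stretch is chr1:143739286-143739342, plus strand, with the motif 38 bases before the start. The Txnip stretch is chr3:96557811-96557867, plus strand, with the motif 121 bases before the start. Of the 8 measured genes with an antioxidant response element (Gclm, Gstm5, Mgst1, Nfe2l2, Prdx1, Sod1, Srxn1 and Txnrd1), 3 were higher and 5 lower in Terc-/- than in WT samples, with differences from -0.26 to 0.68 log2.

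Terc-/- and WT cells were compared to ask which genes differ in leukaemia stem cells that lack telomerase RNA. Values are the deposited log2 values, a difference is Terc-/- minus WT, and a gene was called at a Benjamini-Hochberg adjusted p under 0.05 from limma over all 12061 genes. No gene was called, 0% of those tested, and none of the 39. At an unadjusted p under 0.05 stood 2 of the 39, Gclm (higher) and Glrx2 (lower), beside 896 of all genes (7.43%, of which 336 were higher and 560 lower). That share of the group is near the background. Of the 39 genes, 14 were higher and 25 lower in Terc-/- samples, with a median of -0.03 log2. Over all genes 5545 were higher and 6516 lower, with a median of -0.01 log2. In 1 of 39 genes, Glrx2, every Terc-/- sample lay below every WT sample, against 0.829% of all genes. In 0 of 39 did every Terc-/- sample lie above, against 0.348% of all genes.

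**Figure D1:**
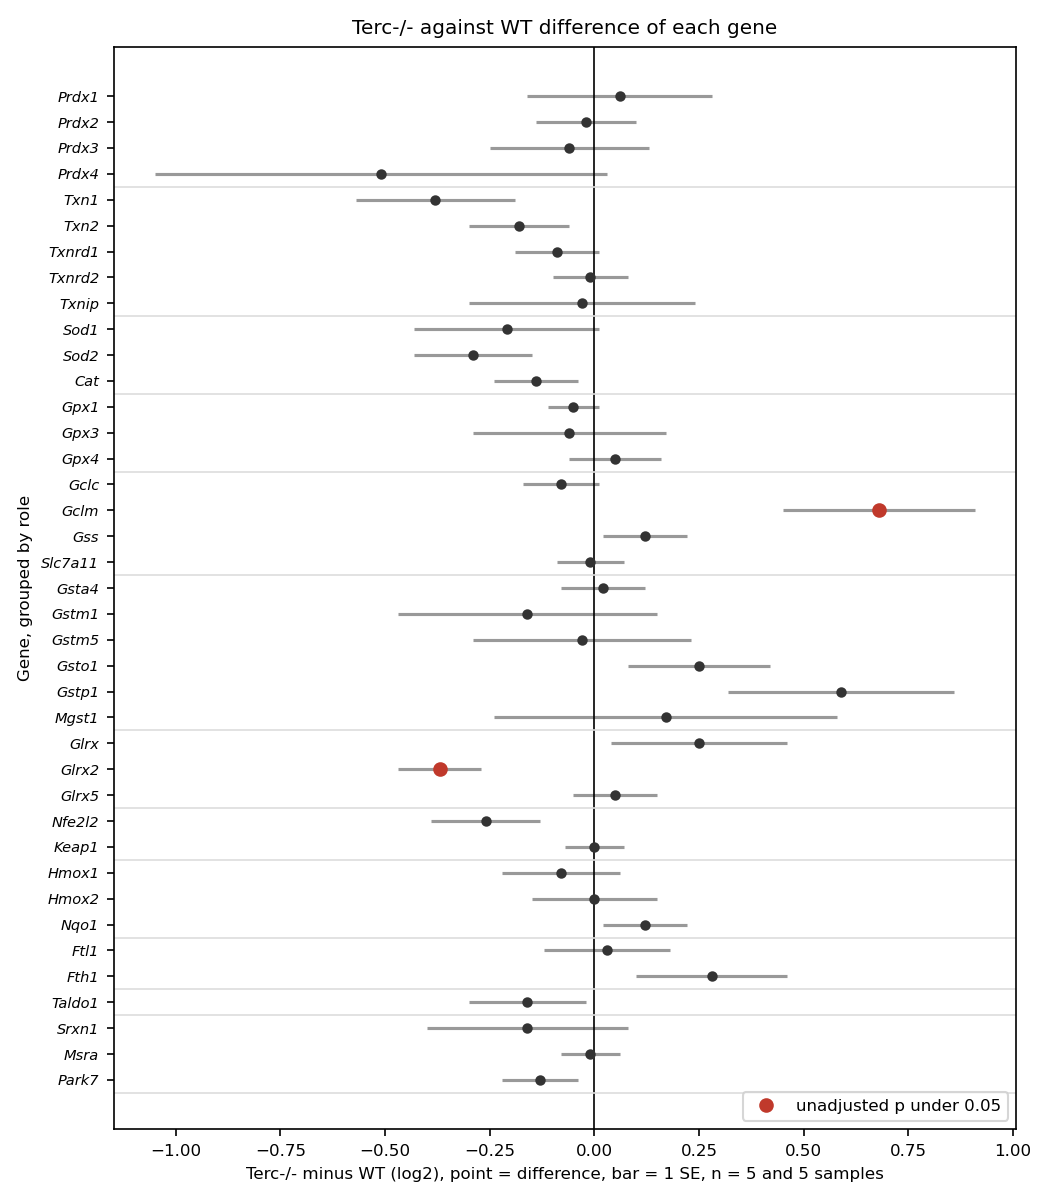
Terc-/- minus WT difference (log2, horizontal axis) of each of the 39 measured genes, ordered by role, with bars of 1 SE (n = 5 samples each). Red points mark Gclm (0.68) and Glrx2 (-0.37), the genes at unadjusted p under 0.05, and no gene passed after adjustment.

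In the sentences that follow, the p-p53 values are those of replicate 3 and of the averaged replicates 2 and 6, the p-Foxo3a values those of replicates 1 and 4, and the WT values those of replicates 1 to 4 and of the averaged replicates 5 and 6. Probes differ in brightness, so levels are compared between samples and not between genes. Of the 15 genes with 2 or more kept probes, 8 had Terc-/- minus WT differences of the same sign on all of them.

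Peroxiredoxins reduce peroxides with electrons from thioredoxin. Of the 4 measured, 1 was higher and 3 lower in Terc-/- samples, and none passed the test. Prdx1 had 12.59 and 12.50 log2 in the p-p53 Terc-/- samples, 12.81 and 13.53 in the p-Foxo3a Terc-/- samples and 13.17 in Terc-/- replicate 5, against 13.40, 12.48, 12.80, 12.70 and 12.94 in WT samples. Prdx1 encodes the main cytosolic form. Its highest values were in Terc-/- replicate 4 and WT replicate 1, and the groups overlapped. These samples had the most eosinophil, basophil and mast cell marker signal in their groups. Terc-/- replicate 1 had the least of that signal, and more Prdx1 than both p-p53 samples. The part of those markers in Prdx1 was not tested. The Prdx1 difference was 0.06 ± 0.22 (SE, limma, unadjusted p = 0.806, adjusted p = 0.969). Prdx4 encodes the form of the endoplasmic reticulum and had the widest range of the group. Prdx4 had 9.79 and 11.67 log2 in the p-p53 Terc-/- samples, 9.31 and 12.15 in the p-Foxo3a Terc-/- samples and 10.93 in Terc-/- replicate 5, against 11.23, 10.94, 12.39, 10.65 and 11.18 in WT samples. The low samples were Terc-/- replicates 1 and 3, and the high ones Terc-/- replicate 4 and WT replicate 3. The SD of Prdx4 was 1.20 log2 in Terc-/- and 0.66 log2 in WT samples, and the difference of -0.51 ± 0.54 (SE, limma, unadjusted p = 0.368, adjusted p = 0.835) lay within that spread. Without Terc-/- replicate 1 the Prdx4 difference was -0.14, and without replicate 4 it was -0.85. Prdx4 lies on the X chromosome. Prdx2, also cytosolic, and the mitochondrial Prdx3 differed by -0.02 and -0.06 log2. The dimmer probes of Prdx2 gave 0.26 and -0.05 log2.

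In the thioredoxin system 0 of 5 genes were higher and 5 lower in Terc-/- samples, with a median of -0.09 log2, and none passed the test. Txnip encodes a protein that binds thioredoxin and blocks it. Txnip had 11.73 and 13.05 log2 in the p-p53 Terc-/- samples, 12.08 and 11.44 in the p-Foxo3a Terc-/- samples and 11.88 in Terc-/- replicate 5, against 12.41, 11.95, 12.03, 11.72 and 12.21 in WT samples. The averaged p-p53 replicates 2 and 6 stood above every other sample, while Terc-/- replicate 4 was lowest. The mean difference of Txnip was -0.03 ± 0.27 (SE, limma, unadjusted p = 0.922, adjusted p = 0.991), and without the averaged replicates 2 and 6 it was -0.28. Its second probe gave -0.04 log2. Txn1 encodes cytosolic thioredoxin, and averaged 9.67 ± 0.19 log2 in Terc-/- and 10.05 ± 0.42 log2 in WT samples (SD, n = 5 each). The groups overlapped, with 9.44 to 9.97 log2 in Terc-/- and 9.53 to 10.64 log2 in WT samples. The Txn1 difference was -0.38 ± 0.19 (SE, limma, unadjusted p = 0.07, adjusted p = 0.679), and without WT replicate 2 it was -0.23. Mitochondrial Txn2 differed by -0.18 log2, and the reductases Txnrd1 and Txnrd2, which recharge thioredoxin from NADPH, by -0.09 and -0.01 log2.

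The 3 genes of superoxide and peroxide removal were all lower in Terc-/- samples, and none passed the test. Sod1 had 12.11 and 12.88 log2 in the p-p53 Terc-/- samples, 12.57 and 13.29 in the p-Foxo3a Terc-/- samples and 12.87 in Terc-/- replicate 5, against 13.37, 12.90, 13.16, 12.63 and 12.71 in WT samples. Sod1, the copper and zinc superoxide dismutase of the cytosol, was lowest in p-p53 replicate 3 and highest in WT replicate 1, and the groups overlapped. Its difference was -0.21 ± 0.22 (SE, limma, unadjusted p = 0.347, adjusted p = 0.826), and was -0.05 without Terc-/- replicate 3 and -0.35 without replicate 4. Its dimmer probe of second rank gave 0.28 log2, the opposite sign. Sod2 encodes the manganese enzyme of mitochondria, and averaged 11.86 ± 0.30 log2 in Terc-/- and 12.15 ± 0.11 log2 in WT samples (SD, n = 5 each). Of its 5 Terc-/- samples 4 lay below every WT sample, and replicate 4 at 12.29 log2 lay above the highest WT value of 12.28. The Sod2 difference was -0.29 ± 0.14 (SE, limma, unadjusted p = 0.0562, adjusted p = 0.679). Catalase (Cat) stood near background, at 6.57 to 7.10 log2 in Terc-/- and 6.87 to 7.08 log2 in WT samples, and differed by -0.14 log2.

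Glutathione peroxidases use glutathione to reduce peroxides. Gpx1 had 15.86 and 15.88 log2 in the p-p53 Terc-/- samples, 15.88 and 15.86 in the p-Foxo3a Terc-/- samples and 15.86 in Terc-/- replicate 5, against 15.83, 15.95, 15.92, 15.92 and 15.95 in WT samples. Gpx1, the cytosolic enzyme, sat at the top of the scale, since the highest value of any probe on any array was 15.95 log2. The 5 Terc-/- samples fell between 15.86 and 15.88, inside the WT range, and the difference was -0.05 ± 0.06 (SE, limma, unadjusted p = 0.43, adjusted p = 0.856). As single arrays, the averaged Terc-/- replicates 2 and 6 read 15.95 and 15.82. Gpx3 encodes the secreted, plasma form. Gpx3 had 11.01 and 10.24 log2 in the p-p53 Terc-/- samples, 11.32 and 11.60 in the p-Foxo3a Terc-/- samples and 11.08 in Terc-/- replicate 5, against 10.94, 11.32, 11.43, 10.74 and 11.11 in WT samples. The averaged p-p53 replicates 2 and 6 were lowest, and p-Foxo3a replicate 4 highest. Across genotypes the Gpx3 groups overlapped, with a difference of -0.06 ± 0.23 (SE, limma, unadjusted p = 0.8, adjusted p = 0.967). Gpx4, which reduces lipid peroxides in membranes, differed by 0.05 log2, and its dimmer probes gave -0.11 and 0.08 log2.

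Glutathione synthesis starts with glutamate-cysteine ligase, a catalytic subunit (Gclc) with a modifier subunit (Gclm) that raises its activity, and both are textbook Nrf2 targets. Gclm had 10.11 and 10.32 log2 in the p-p53 Terc-/- samples, 10.96 and 10.07 in the p-Foxo3a Terc-/- samples and 11.33 in Terc-/- replicate 5, against 9.78, 10.15, 9.95, 9.75 and 9.77 in WT samples. Terc-/- replicates 5 and 1 were the highest samples, well above all WT samples, while replicate 4 and p-p53 replicate 3 lay just below WT replicate 2, so the groups overlapped. Gclm averaged 10.56 ± 0.56 log2 in Terc-/- and 9.88 ± 0.17 log2 in WT samples (SD, n = 5 each), a 1.60-fold higher level, with a difference of 0.68 ± 0.23 (SE, limma, unadjusted p = 0.0154, adjusted p = 0.637). An exact two-sided permutation test of the 252 arrangements of samples gave p = 0.0238 for Gclm alone, where 0.00794 is the smallest it can give. The Gclm difference ranged from 0.48 without Terc-/- replicate 5 to 0.80 without replicate 4. Its partner Gclc was close to background, at 6.70 to 6.97 log2 in Terc-/- and 6.69 to 7.07 log2 in WT samples, and differed by -0.08 log2. Gss, glutathione synthetase, differed by 0.12 log2, and its other probes gave -0.03, 0.13 and 0.04 log2. The cystine carrier Slc7a11 differed by -0.01 log2. It was close to background, at 6.71 to 6.97 log2 in Terc-/- and 6.69 to 6.98 log2 in WT samples.

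**Figure D2:**
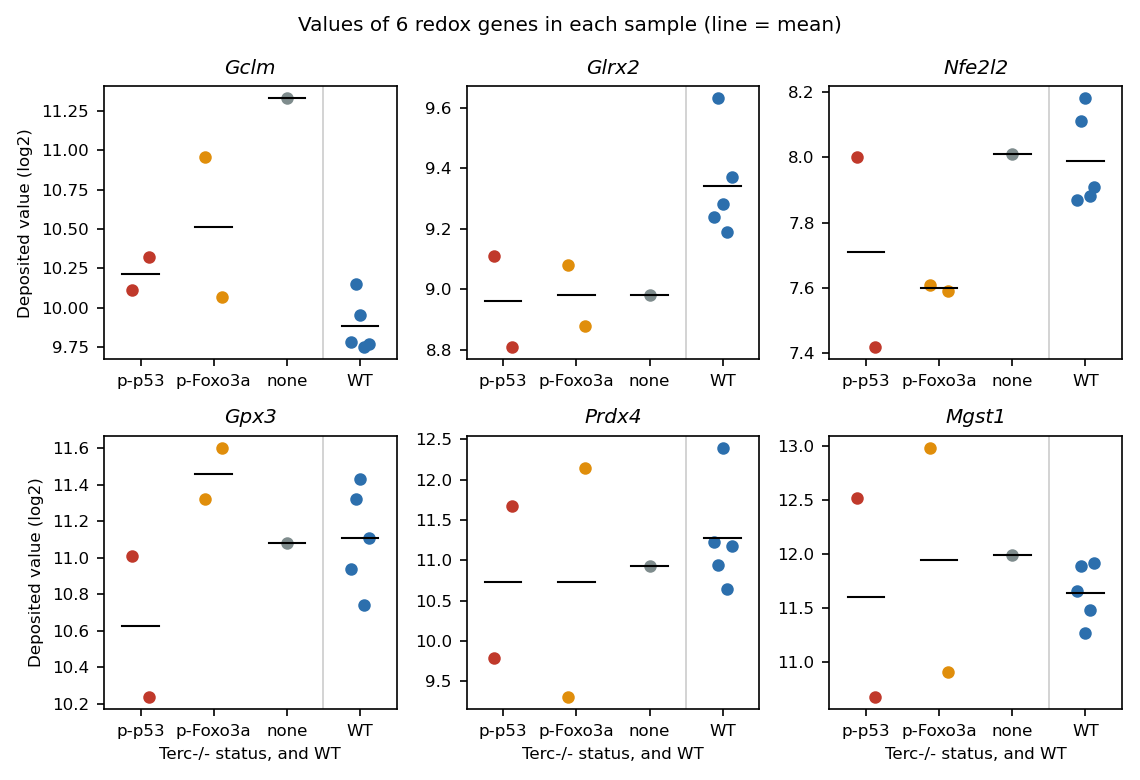
Deposited log2 value (vertical axis, a separate scale per gene) of 6 genes in each sample, for the p-p53, p-Foxo3a and status-free Terc-/- samples and WT, with a line at each mean. Gclm reached 10.96 and 11.33 in 2 Terc-/- samples, all 5 Terc-/- values of Glrx2 lay below 9.19, the lowest WT value, and Prdx4 and Mgst1 spread widely within Terc-/- samples.

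Glutathione transferases couple glutathione to reactive compounds. Of 6 measured, 4 were higher and 2 lower in Terc-/- samples, and none passed the test. Gsto1 had 13.15 and 13.54 log2 in the p-p53 Terc-/- samples, 13.54 and 13.32 in the p-Foxo3a Terc-/- samples and 13.23 in Terc-/- replicate 5, against 13.75, 12.90, 13.07, 12.99 and 12.81 in WT samples. Gsto1, the omega class enzyme, was highest in WT replicate 1, and apart from that sample every WT value lay below every Terc-/- value. The difference was 0.25 ± 0.17 (SE, limma, unadjusted p = 0.169, adjusted p = 0.741), and without WT replicate 1 it was 0.41. Gstp1, the pi class enzyme, averaged 12.01 ± 0.33 log2 in Terc-/- and 11.42 ± 0.59 log2 in WT samples (SD, n = 5 each). The Gstp1 groups overlapped through WT replicate 1 at 12.34 log2, and the difference was 0.59 ± 0.27 (SE, limma, unadjusted p = 0.0501, adjusted p = 0.67). Its other probes gave 0.42 and 0.04 log2, the smaller from a dim probe. Mgst1 encodes the microsomal enzyme. Mgst1 had 12.52 and 10.68 log2 in the p-p53 Terc-/- samples, 12.98 and 10.91 in the p-Foxo3a Terc-/- samples and 11.99 in Terc-/- replicate 5, against 11.66, 11.89, 11.27, 11.48 and 11.92 in WT samples. Terc-/- replicates 1, 3 and 5 were above every WT sample, and replicate 4 and the averaged replicates 2 and 6 below every one. The Mgst1 difference was 0.17 ± 0.41 (SE, limma, unadjusted p = 0.682, adjusted p = 0.94) and became -0.12 without replicate 1. Its second probe gave -0.10 log2, the opposite sign, and there only replicates 1 and 3 were above every WT sample. Gstm1 and Gstm5 of the mu class differed by -0.16 and -0.03 log2, and Gsta4, which acts on lipid aldehydes, by 0.02 log2. Gsta4 stood near background, at 6.50 to 6.97 log2 in Terc-/- and 6.59 to 6.92 log2 in WT samples.

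Glutaredoxins reduce protein disulfides with glutathione. Glrx2 had 9.11 and 8.81 log2 in the p-p53 Terc-/- samples, 9.08 and 8.88 in the p-Foxo3a Terc-/- samples and 8.98 in Terc-/- replicate 5, against 9.24, 9.63, 9.28, 9.19 and 9.37 in WT samples. Glrx2, the mitochondrial form, was lower in each of the 5 Terc-/- samples than in any WT sample. Glrx2 averaged 8.97 ± 0.13 log2 in Terc-/- and 9.34 ± 0.18 log2 in WT samples (SD, n = 5 each), or 1.29-fold lower in Terc-/-. The difference was -0.37 ± 0.10 (SE, limma, unadjusted p = 0.00395, adjusted p = 0.637). The exact two-sided permutation test gave p = 0.00794 for Glrx2 alone, the smallest this design allows. Any gene whose 5 Terc-/- and 5 WT samples do not overlap gets this p, so it only restates the separation. These values are of 1 probe of 3. The other Glrx2 probes, which averaged 7.19 and 6.52 log2 in Terc-/- samples and 7.30 and 6.50 in WT samples, gave -0.11 and 0.02 log2 with overlapping groups, and the mean of the 3 probes differed by -0.15 log2. Glrx had 13.91 and 13.29 log2 in the p-p53 Terc-/- samples, 14.13 and 12.85 in the p-Foxo3a Terc-/- samples and 13.33 in Terc-/- replicate 5, against 13.11, 13.20, 13.39, 13.42 and 13.14 in WT samples. Glrx, the cytosolic form, was highest in Terc-/- replicates 1 and 3 and lowest in replicate 4, so that Terc-/- values lay on both sides of the WT range. Its difference was 0.25 ± 0.21 (SE, limma, unadjusted p = 0.267, adjusted p = 0.791), and without Terc-/- replicate 1 it was 0.095 and without replicate 4 0.41. Glrx5, which serves iron-sulfur cluster assembly, differed by 0.05 log2.

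Nfe2l2 had 8.00 and 7.42 log2 in the p-p53 Terc-/- samples, 7.61 and 7.59 in the p-Foxo3a Terc-/- samples and 8.01 in Terc-/- replicate 5, against 7.87, 8.11, 8.18, 7.88 and 7.91 in WT samples. Nfe2l2 was lowest in the averaged p-p53 replicates 2 and 6 and in both p-Foxo3a samples, while p-p53 replicate 3 and replicate 5 lay inside the WT range. The difference was -0.26 ± 0.13 (SE, limma, unadjusted p = 0.0681, adjusted p = 0.679). Keap1 had 10.94 and 10.92 log2 in the p-p53 Terc-/- samples, 10.83 and 10.74 in the p-Foxo3a Terc-/- samples and 10.95 in Terc-/- replicate 5, against 10.83, 10.98, 10.84, 10.83 and 10.92 in WT samples. Between Terc-/- and WT the Keap1 groups overlapped, both means were 10.88 log2, and the adjusted p was 0.996 in limma. Both p-Foxo3a samples lay below all WT samples, though the nearest values of the groups both round to 10.83 log2. Keap1 differed there by -0.09 ± 0.09 (SE, limma, unadjusted p = 0.331). Keap1 had 5 kept probes, whose differences ran between -0.11 and 0.11 log2. Of the enzymes of haem and quinones, the haem oxygenase gene Hmox2 was the brightest. Hmox2 had 10.57 and 10.77 log2 in the p-p53 Terc-/- samples, 11.27 and 10.33 in the p-Foxo3a Terc-/- samples and 10.74 in Terc-/- replicate 5, against 10.91, 10.83, 10.66, 10.62 and 10.64 in WT samples. Terc-/- samples held both the highest value, in replicate 1, and the lowest, in replicate 4. Hmox2 is the constitutive haem oxygenase, both its means were 10.73 log2, and the adjusted p was 0.998 in limma. The inducible Hmox1 lay at 6.70 to 7.12 log2 in Terc-/- and 6.49 to 7.21 log2 in WT samples, and the quinone reductase Nqo1 at 6.54 to 6.96 log2 in Terc-/- and 6.41 to 6.78 log2 in WT samples. Both are close to the background limit, where a fold change is understated on this scale, and both are genes whose induction is commonly read as Nrf2 activity.

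Ferritin stores iron and keeps it from reacting with peroxide. Fth1 had 14.29 and 14.75 log2 in the p-p53 Terc-/- samples, 14.79 and 14.93 in the p-Foxo3a Terc-/- samples and 14.98 in Terc-/- replicate 5, against 15.02, 14.19, 14.52, 14.36 and 14.28 in WT samples. Fth1, the heavy chain with ferroxidase activity, was lowest in WT replicate 2 among all samples and highest in WT replicate 1. The difference was 0.28 ± 0.18 (SE, limma, unadjusted p = 0.146, adjusted p = 0.725), and a second Fth1 probe gave 0.25 log2. The light chain Ftl1 differed by 0.03 log2. Taldo1 had 13.80 and 13.74 log2 in the p-p53 Terc-/- samples, 13.56 and 13.71 in the p-Foxo3a Terc-/- samples and 13.83 in Terc-/- replicate 5, against 14.36, 13.58, 13.61, 13.95 and 13.93 in WT samples. Taldo1, a transaldolase of the pentose phosphate pathway, was highest in WT replicate 1, and all Terc-/- samples lay within the WT range of 13.58 to 14.36 log2 but for replicate 1 at 13.56. The Taldo1 difference was -0.16 ± 0.14 (SE, limma, unadjusted p = 0.28, adjusted p = 0.796), and without WT replicate 1 it was -0.04. Park7 had 13.66 and 13.78 log2 in the p-p53 Terc-/- samples, 13.64 and 13.97 in the p-Foxo3a Terc-/- samples and 13.63 in Terc-/- replicate 5, against 13.98, 13.82, 13.92, 13.74 and 13.84 in WT samples. Park7, known as DJ-1, a protein that senses oxidation, had overlapping groups with a difference of -0.13 ± 0.09 (SE, limma, unadjusted p = 0.169, adjusted p = 0.741). Sulfiredoxin (Srxn1), which repairs oxidised peroxiredoxins, ranged from 6.93 log2 in p-p53 replicate 3 to 8.40 log2 in p-Foxo3a replicate 4 and differed by -0.16 log2. Methionine sulfoxide reductase Msra differed by -0.01 log2, near background.

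**Figure D3:**
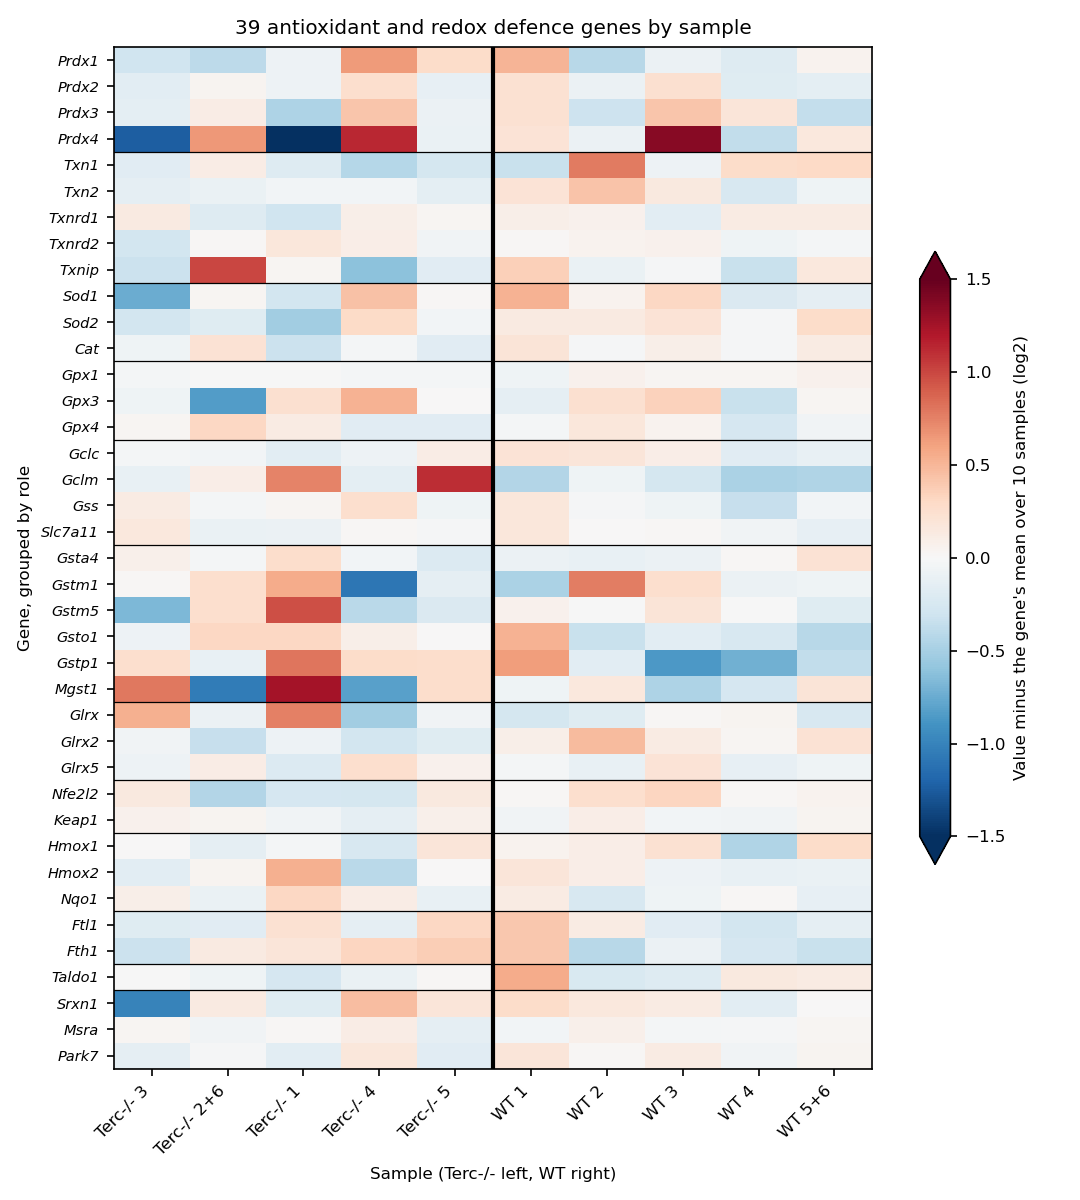
Each cell is the log2 value of a gene (rows, grouped by role) in a sample (columns, Terc-/- left of the thick line and WT right) minus the mean of the gene over the 10 samples; colours saturate at 1.5. The strongest colour is that of Prdx4 in Terc-/- replicate 1 (9.31 log2), followed by Prdx4 in WT replicate 3 (12.39 log2) and Mgst1 in Terc-/- replicate 1 (12.98 log2).

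The mean deviation of the 39 genes from the mean of each gene over all samples lay between -0.11 log2 (p-p53 replicate 3) and 0.05 log2 (p-Foxo3a replicate 1) in the 5 Terc-/- samples, and between -0.13 log2 (replicate 4) and 0.12 log2 (replicate 1) in the 5 WT samples. WT replicate 1 was the highest WT sample in 16 of 39 genes (41.0%, against 27.2% of all genes), and WT replicate 4 the lowest in 20 of 39 (51.3%, against 29.6% of all genes). The SD between samples was larger in Terc-/- than in WT for 24 of 39 genes (61.5%), against 57.1% of all genes. The median SD of the 39 genes was 0.20 log2 in Terc-/- and 0.17 log2 in WT samples, where all genes had 0.19 log2 in Terc-/- and 0.17 log2 in WT samples.

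**Figure D4:**
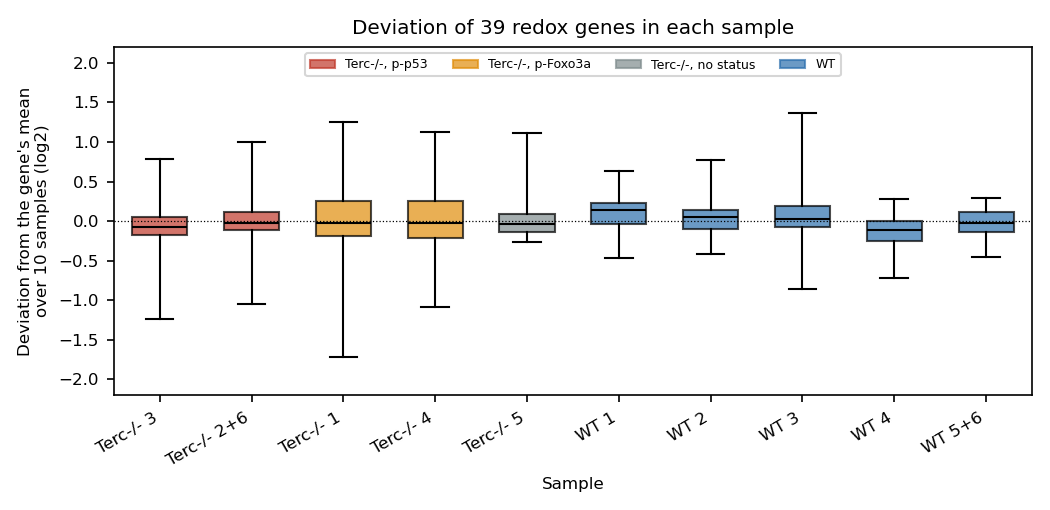
Box plots of the deviation (log2) of the 39 genes from their means over 10 samples, 1 box per sample, with the median, the quartiles and whiskers to the lowest and highest gene. WT replicate 1 sits highest and WT replicate 4 lowest by the mean deviation (0.12 and -0.13), and the mean deviations of the Terc-/- samples lie between these.

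The 2 statuses of Terc-/- cells were each compared with WT, and then with each other. Both comparisons with WT use the same WT samples. No gene was called at adjusted p under 0.05 in the comparisons of p-p53 with WT, of p-Foxo3a with WT, or of p-p53 with p-Foxo3a (limma, 0% of 12061 genes each). At unadjusted p under 0.05 stood 1 of the 39 genes in p-p53 against WT (all genes 2.62%), 3 of 39 in p-Foxo3a against WT (all genes 9.71%) and 1 of 39 in p-p53 against p-Foxo3a (all genes 5.13%). In p-p53 against WT 15 genes were higher and 24 lower, with a median of -0.06 log2. In p-Foxo3a against WT 19 were higher and 20 lower, with a median of -0.00 log2. In p-p53 against p-Foxo3a 15 were higher and 24 lower, with a median of -0.08 log2.

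Glrx2 was the gene at unadjusted p under 0.05 in p-p53 against WT, at -0.38 ± 0.15 (SE, limma, unadjusted p = 0.0305, adjusted p = 1). In p-Foxo3a against WT it differed by -0.36 ± 0.15 (SE, limma, unadjusted p = 0.0402, adjusted p = 0.512), and between p-p53 and p-Foxo3a by -0.03 ± 0.18 (SE, limma, unadjusted p = 0.888, adjusted p = 0.994). On the brightest of the 3 Glrx2 probes, the one used here, the values of both statuses lay below all WT values. The dimmer Glrx2 probes gave -0.03 and -0.08 log2 in p-p53 against WT, and -0.06 and -0.00 log2 in p-Foxo3a against WT. In p-p53 against WT 0 of the 39 genes lay wholly above WT and 2 wholly below, against 4.03% and 4.32% of all genes. In p-Foxo3a against WT 1 of the 39 lay wholly above and 4 wholly below, against 5.07% and 7.41% of all genes. Gclm was higher in p-Foxo3a than in WT samples by 0.63 ± 0.22 (SE, limma, unadjusted p = 0.0216, adjusted p = 0.485), which rests on replicate 1 at 10.96 log2, since replicate 4 at 10.07 lay below the highest WT sample. Without replicate 1 the Gclm difference was 0.19 (adjusted p = 0.939 in limma). With replicate 4 left out, Gclm differed by 1.08 ± 0.18 (SE) with an adjusted p of 0.0395 in limma, where the lone p-Foxo3a sample is assumed to vary like the other groups and 258 genes were called. In p-p53 samples Gclm differed from WT by 0.34 ± 0.22 (SE, limma, unadjusted p = 0.171, adjusted p = 1). The difference of Gclm between p-p53 and p-Foxo3a was -0.30 ± 0.27 (SE, limma, unadjusted p = 0.302, adjusted p = 0.954). The highest Gclm value, 11.33 log2, was that of replicate 5, which has no status.

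Nfe2l2 differed between p-Foxo3a and WT samples by -0.39 ± 0.16 (SE, limma, unadjusted p = 0.0419, adjusted p = 0.512), with both p-Foxo3a samples below all WT samples, as in the 4 of 39 genes counted above. In p-p53 against WT it differed by -0.28 ± 0.16 (SE, limma, unadjusted p = 0.128, adjusted p = 1), and between p-p53 and p-Foxo3a by 0.12 ± 0.20 (SE, limma, unadjusted p = 0.568, adjusted p = 0.976). Gpx3 was the gene at unadjusted p under 0.05 in p-p53 against p-Foxo3a. It averaged 10.62 log2 in the p-p53 and 11.46 log2 in the p-Foxo3a samples (n = 2 each), and both p-p53 values lay below both p-Foxo3a values. This was so for 8 of the 39 genes, against 14.1% of all genes, and 4 of the 39 were wholly higher in p-p53, against 15.6% of all genes. The difference was -0.84 ± 0.29 (SE, limma, unadjusted p = 0.0201, adjusted p = 0.944). It ranged from -1.22 without p-p53 replicate 3 to -0.45 without the averaged replicates 2 and 6, a 1-sample arm in each case. Against WT, Gpx3 differed by -0.48 ± 0.24 log2 (SE) in p-p53 and by 0.35 ± 0.24 log2 (SE) in p-Foxo3a samples. Prdx1 differed between p-p53 and p-Foxo3a by -0.62 ± 0.31 (SE, limma, unadjusted p = 0.0774, adjusted p = 0.944), and Txnip by 0.63 ± 0.41 (SE, limma, unadjusted p = 0.16, adjusted p = 0.952).

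Some of these genes lie on chromosomes whose genes shifted together in single samples. In the counts and medians that follow, dim genes of a chromosome were left out. A deviation is from the mean of the other samples. Chromosome 19 carries Prdx3, Gsto1, Gstp1 and Fth1. Its 271 genes had a median deviation of -0.28 log2 in WT replicate 2 and -0.20 log2 in the averaged WT replicates 5 and 6, and between -0.06 and 0.14 log2 in the other samples. Of these genes, 201 (74.2%) were higher in Terc-/- than in WT, with a median difference of 0.14 log2, and each of 4 runs of neighbouring genes showed a positive median (0.09 to 0.19 log2). With every chromosome centred in every sample, the Terc-/- minus WT difference was 0.14 for Fth1, 0.12 for Gsto1 and 0.46 for Gstp1, against 0.28, 0.25 and 0.59 log2 as deposited. In Terc-/- replicate 1, a p-Foxo3a sample, the 236 genes of chromosome 16, which carries Sod1, Hmox2 and Txnrd2, had a median deviation of 0.41 log2, and the 359 genes of chromosome 6, which carries Mgst1, of 0.39 log2. In the same sample the run of 140 genes of chromosome 2 that holds Nfe2l2 and Cat had a median deviation of -0.61 log2, against 0.01 to 0.11 log2 in the other samples. Centring takes away the median deviation of the brighter genes of the whole chromosome and leaves dim genes such as Cat as they were. The median deviation of the whole chromosome was -0.20 log2 in that sample, less than the shift of this run. After centring, Nfe2l2 differed between p-Foxo3a and WT by -0.28 log2. In a sample whose chromosome shifted, the shift and any change of the gene itself cannot be told apart. In p-Foxo3a replicate 4 and the averaged p-p53 replicates 2 and 6, the run of Nfe2l2 deviated by 0.09 and 0.06 log2. Nfe2l2 was 7.59 and 7.42 log2 there, below all WT samples. It was 8.00 and 8.01 log2 in Terc-/- replicates 3 and 5, where the run deviated by 0.04 and 0.01 log2. The part of the shift in these differences was not tested.

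**Figure D5:**
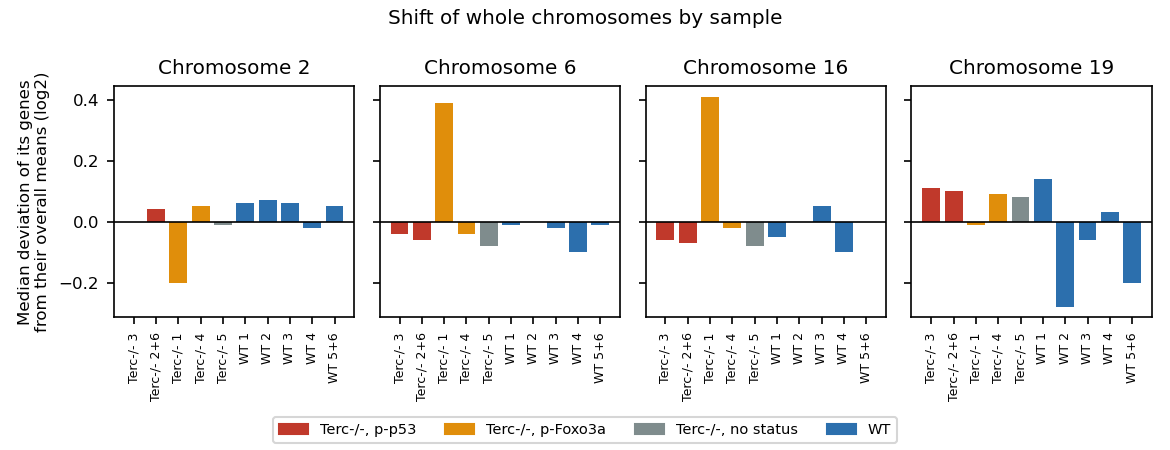
Median deviation (log2, vertical axis) of the brighter genes of chromosomes 2, 6, 16 and 19 from their means over the other samples, 1 bar per sample, Terc-/- left of WT. Terc-/- replicate 1 stands at 0.39 on chromosome 6 and 0.41 on chromosome 16, and WT replicate 2 at -0.28 on chromosome 19.

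Other genes of the same pathways were described from lists of related genes. None passed the test in any comparison. Of 14 measured partners of Nrf2, 8 were higher and 6 lower in Terc-/- than in WT samples. Crebbp, a coactivator, differed by -0.60 ± 0.24 (SE, unadjusted p = 0.0315), and Syvn1, a ubiquitin ligase, by 0.30 ± 0.14 (SE, unadjusted p = 0.0542). In p-Foxo3a against WT the related factor Nfe2l1 differed by 0.38 ± 0.12 (SE, unadjusted p = 0.0111) and the small Maf protein Mafg, with which Nrf2 pairs, by 0.64 ± 0.22 (SE, unadjusted p = 0.0176). In p-p53 against p-Foxo3a, Cul3, the ligase scaffold that degrades Nrf2 with Keap1, differed by 0.34 ± 0.10 (SE, unadjusted p = 0.00979).

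Of 18 other genes of NADPH supply, 6 were higher and 12 lower in Terc-/- samples, and Mthfd2, a mitochondrial folate enzyme, differed by -0.50 ± 0.22 (SE, unadjusted p = 0.0452), and Rpe, an epimerase of the pentose phosphate pathway, by -0.23 ± 0.13 (SE, unadjusted p = 0.101). Pgls, of the pentose phosphate pathway, differed between p-p53 and p-Foxo3a samples by 0.52 ± 0.11 (SE, unadjusted p = 0.000986), and Idh1, a cytosolic NADPH source, by 0.49 ± 0.15 (SE, unadjusted p = 0.0101). Of 32 other glutathione and thiol genes, 15 were higher and 17 lower in Terc-/- samples. Mgst3, a relative of Mgst1, differed by -0.63 ± 0.15 (SE, unadjusted p = 0.00162), and Esd, which acts on a glutathione conjugate, by -0.21 ± 0.10 (SE, unadjusted p = 0.058). Of 18 genes of selenoprotein synthesis and selenoproteins, 10 were higher and 8 lower, with Selenon at 0.53 ± 0.22 (SE, unadjusted p = 0.038) and Selenot at -0.39 ± 0.17 (SE, unadjusted p = 0.0455), both proteins of the endoplasmic reticulum.

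Of 23 other superoxide and peroxide genes, 12 were higher and 11 lower in Terc-/- samples, with the quinone reductase Nqo2 at -0.53 ± 0.19 (SE, unadjusted p = 0.0213) and the glutathione conjugate exporter Abcc1 at 0.36 ± 0.14 (SE, unadjusted p = 0.0223). Of 19 genes of iron handling, 8 were higher and 11 lower. Slc25a28, a mitochondrial iron importer, differed by 0.22 ± 0.13 (SE, unadjusted p = 0.112), and Slc40a1, the iron exporter ferroportin, by -0.79 ± 0.49 (SE, unadjusted p = 0.138). Of 6 measured genes of the phagocyte oxidase, the superoxide source of granulocytes, 2 were higher and 4 lower, with Rac2 at -0.30 ± 0.15 (SE, unadjusted p = 0.0712) and Ncf4, a cytosolic subunit, at -0.35 ± 0.18 (SE, unadjusted p = 0.0851). In p-Foxo3a against WT, Rac2 differed by -0.57 ± 0.17 (SE, unadjusted p = 0.0085) and Ncf4 by -0.65 ± 0.22 (SE, unadjusted p = 0.0167). In p-p53 against WT, Rac2 differed by -0.09 ± 0.17 (SE) and Ncf4 by -0.18 ± 0.22 (SE). Rac1 had the smallest p of the list there and was higher, by 0.31 ± 0.10 (SE, limma, unadjusted p = 0.0145). Of the 6 oxidase genes, 2 were higher and 4 lower in p-p53 against WT, and likewise in p-Foxo3a against WT. Mature neutrophil markers were lower than in WT samples for 9 of 10 genes in p-Foxo3a (median -1.01 log2) and for 10 of 10 in p-p53 samples (median -0.48 log2). The part of those markers in the result was not tested.

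Of 10 measured genes of a list linked to p53, not all of them antioxidant enzymes, 6 were higher and 4 lower in Terc-/- samples. Phlda3, a p53 target that represses Akt, had 6.85 to 7.85 log2 in Terc-/- and 6.37 to 6.75 log2 in WT samples. Every Terc-/- sample lay above every WT sample, and the WT values lay around the background limit. Phlda3 differed between Terc-/- and WT by 1.02 ± 0.18 (SE, unadjusted p = 0.000182) with an adjusted p of 0.508 in limma, by 0.80 ± 0.24 (SE, unadjusted p = 0.00909) between p-p53 and WT, and by 1.22 ± 0.24 (SE, unadjusted p = 0.000784) between p-Foxo3a and WT. Trp53inp1, an inducer of stress responses, differed between Terc-/- and WT by 0.75 ± 0.28 (SE, unadjusted p = 0.0223). Sesn2, a sestrin that aids the repair of peroxiredoxins, differed between p-p53 and p-Foxo3a samples by -0.70 ± 0.29 (SE, unadjusted p = 0.0384). Of 7 measured genes linked to FoxO, 4 were higher and 3 lower in Terc-/- samples. Foxo3 itself differed between Terc-/- and WT by 0.50 ± 0.17 (SE, unadjusted p = 0.0127), with p-Foxo3a samples at 0.65 ± 0.23 (SE, unadjusted p = 0.02) from WT and p-p53 samples at 0.32 ± 0.23 (SE, unadjusted p = 0.193) from WT. Gabarapl1, an autophagy protein, differed by 0.82 ± 0.38 (SE, unadjusted p = 0.0552) between Terc-/- and WT and by 1.48 ± 0.44 (SE, unadjusted p = 0.0092) between p-Foxo3a and WT. Foxo1 differed between p-p53 and p-Foxo3a by -0.57 ± 0.22 (SE, unadjusted p = 0.031).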

How the data were processed

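The data are 12 Illumina bead arrays of sorted leukaemia stem cells. The values used are the log2 values deposited by the authors for 38502 probes. GenomeStudio was used, per the submitters' processing notes. Its version and the normalization of the values are not stated in these sources. The log base is read from the range of values. Sorted values differed by at most 0.09 between arrays, and array medians lay at 6.57 to 6.58. No background subtraction was visible, so folds of dim genes are understated on this scale. The column names of a table of raw signals match no sample, and its 24 columns of per-sample values were not used.

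The mode of all values (6.34) and the spread below it (SD 0.13) set a background limit of 6.56 (0.05 of such background lies above it). Probes were kept when above it on at least 3 of 12 arrays, and the brightest kept probe stood for a gene. By the platform annotation 32034 probes have 1 gene and 16 several, and 6452 are not listed. Of them, 31976 matched the gene table of GRCm38.p6 by Entrez identifier. That table gave chromosomes and gene order. The averaged array pairs correlated at 0.9962 or more, against at most 0.988 in the other of 66 pairs, and no probe differed 2-fold within them, against at least 281 in other pairs. Their number limits the precision.

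Tests used limma 3.58.1 (lmFit, eBayes) under R 4.3.3, two-sided, on the log2 values, with Benjamini-Hochberg adjustment over 12061 genes. The phosphorylation statuses were fitted with WT in 1 model of 3 levels, without replicate 5. The fit of Terc-/- against WT was also run on simulated data with independent noise for each gene, and its outcome is not given here. Such data hold no chromosome shifts, and the status comparisons were not read from them. Same-numbered replicates of the groups did not deviate together (correlations of -0.217 to 0.147), and the labels do not tie the numbers to animals, so no block entered the main comparisons. Alternatives changed the probe filter, the probe per gene, the array scaling, the background, the prior variance, the averaging and the samples. Centring each chromosome was added after seeing the data.

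Values per sample are given for genes at unadjusted p under 0.05 in any comparison, for genes whose Terc-/- and WT samples did not overlap, and for the brightest gene of each role. Prdx4, Mgst1, Txn1, Sod2 and Gstp1 were chosen after their values were seen. Of each other list, the 2 genes of smallest p in Terc-/- against WT are named, and from the other comparisons some of those ranked first or second by p. Rac2 is also given in p-p53 against WT, where it ranked lower. The members and lists were chosen with earlier results of these data known.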

Additional observations from a re-analysis of the deposited data

Results flagged for a closer look

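In 78 groups of 5 samples (39 genes in Terc-/- and in WT), 4 had a sample set apart by more than the critical value of Dixon's gap ratio, where chance gives about 1 in 20. All 4 samples are WT. Txnrd1 was 7.07 log2 in WT replicate 3, below the other WT samples at 7.30 to 7.35. Gpx1 was 15.83 in WT replicate 1, below 15.92 to 15.95 in the others. That gap is smaller than the one between the near-identical arrays of Terc-/- replicates 2 and 6, which read 15.95 and 15.82 for Gpx1. Gsto1 was 13.75 in WT replicate 1, above 12.81 to 13.07 in the others. Glrx5 was 12.11 in WT replicate 3, above 11.79 to 11.88 in the others.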

How the results depend on the processing

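Of the 39 differences between Terc-/- and WT, 20 kept their sign under every alternative run and 19 turned under at least one, and the largest of the 19 was 0.21 log2 in size. Among 570 recomputed differences of named genes, 36 turned sign and 1 passed the threshold (Gclm in p-Foxo3a against WT, without Terc-/- replicate 4). With all 12 arrays as separate samples, and with a replicate block on them, the difference was -0.027 for Prdx1, 0.119 for Txnip and -0.064 for Mgst1. With the mean of a gene's kept probes it was 0.008 for Sod1 and 0.011 for Keap1, and with arrays centred on their medians 0.020 for Keap1. With each chromosome centred it was 0.006 for Txnip, 0.020 for Keap1 and -0.049 for Hmox2. Leaving out 1 sample at a time gave -0.097 to 0.190 for Prdx1, -0.281 to 0.123 for Txnip, -0.199 to 0.141 for Gpx3, -0.119 to 0.457 for Mgst1, -0.020 to 0.030 for Keap1 and -0.130 to 0.104 for Hmox2. The causes were not tested.

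Genes past the threshold numbered 1 in p-p53 against WT with all 12 arrays separate or with the mode subtracted. Leaving out 1 sample gave 0 to 1 genes in Terc-/- against WT, 0 to 15 in p-p53 against WT, 0 to 258 in p-Foxo3a against WT and 0 to 29 in p-p53 against p-Foxo3a, where the lone sample of an arm is assumed to vary like the others. Of the 39 genes, 0 to 1 then passed, the 1 in p-Foxo3a against WT. The share of all genes at unadjusted p under 0.05 is not given here for the alternatives. The counts that follow show how the number moves with the setting and are no result about the 39 genes. With all arrays separate, near-identical arrays count as separate samples. The number of the 39 at unadjusted p under 0.05 was then 6 in Terc-/- against WT, 5 in p-p53 against WT, 5 in p-Foxo3a against WT and 3 in p-p53 against p-Foxo3a. It was 1 in Terc-/- against WT, 0 in p-p53 against WT and 2 in p-p53 against p-Foxo3a with the mean of a gene's probes. It was 0 in p-p53 against WT with a prior variance that follows expression, and 2 in p-p53 against p-Foxo3a without a filter on dim probes or with each chromosome centred. Leaving out 1 sample gave 2 to 6 in Terc-/- against WT, 0 to 4 in p-p53 against WT, 1 to 8 in p-Foxo3a against WT and 1 to 5 in p-p53 against p-Foxo3a. The replicate block, which also takes near-identical arrays as separate samples, gave 7 in Terc-/- against WT and 4 in p-p53 against WT. It gave 0 genes past the threshold. With that block Gpx3 differed by -1.432 between p-p53 and p-Foxo3a samples. The numbers do not pair the samples.

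Values near the background limit, and the top of the scale for Gpx1, limit what a difference can show.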
